A study of Homo sapiens with 39 samples.

Results

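The comparison set 3 HCT116 lines that express HNF4A isoforms 7, 8 or 9 against 3 that express isoforms 4, 5 or 6. HNF4A (hepatocyte nuclear factor 4 alpha) is a nuclear receptor, and the question is how mRNA levels differ between isoforms that differ at their N-terminus. The members were every library of those 6 lines, 18 of 39 libraries in all, with 3 libraries per line. By the standard nomenclature, which the labels do not spell out, isoforms 7 to 9 are transcribed from promoter P2 and isoforms 4 to 6 carry exon 1B. The pairs 7 with 4, 8 with 5 and 9 with 6 share their C-terminal form, in order the full one, one with an insertion and a shortened one. The lines are called here the P2 lines and the exon 1B lines.

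HCT116 is a human colorectal cancer line. Each line holds 1 isoform fused to GFP at its C-terminus, inserted with the Flp-In T-REx system, in which doxycycline switches on the construct. All groups, the parental cells with no isoform construct included, received 2.5 µg/ml doxycycline for 48 h, per the labels' protocols. Earlier the 6 lines had been kept in 5 µg/ml blasticidin and 100 µg/ml hygromycin B, and the parental cells in 5 µg/ml blasticidin and 100 µg/ml zeocin, all withdrawn at induction. Every isoform is represented by 1 line and no line expressed GFP alone. The parental cells also express HNF4A of their own, so each line makes its isoform beside the cells' own receptor. The 3 libraries of a line are not described as separate cultures, so p-values between libraries measure a spread that may be technical.

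HNF4A binds DNA as a homodimer and controls metabolic, transport and secreted-protein genes in liver, gut, kidney and pancreas. Its promoters are used differently by tissue: adult liver mostly uses P1, pancreatic islet and stomach mostly P2, and the intestine both. The isoforms share the DNA-binding and ligand-binding domains, while the N-terminal part, which contributes to activation of transcription, depends on the promoter and first exons.

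A frequent form of the HNF4 binding motif, CAAAGTCCA, was searched on both strands in promoters of 250 bases before to 50 bases after the start site (RefSeq, GRCh38.p14). The sequences show which genes higher in the P2 lines carry it. Higher and lower genes are the 95 (0.633% of those tested) and 118 (0.787%) that passed the limma test between the classes. CAAAGTCCA was present in 4 of the 71 higher genes with a promoter in the table (5.63%), against 0 of 74 lower genes, 0.247% of 10929 matched genes tested and 0.359% of all 27305 promoters. With 1 position left open (CAAAGTNCA), 6 of 71 higher genes (8.45%) and 0 of 74 lower genes had a match, against 0.64% of genes tested and 1.07% of all promoters. The shorter AGTCCA, which lies inside CAAAGTCCA, was in 23.9% of higher genes, 13.5% of lower genes, 10.1% of genes tested and 11.9% of all promoters. Each sequence is on its gene's strand, 5′ to 3′, with the motif in capitals. It reads TGGACTTTG or TGAACTTTG where the match is on the other strand. The CD68 motif lies 14 bases past the start site, and all of its printed stretch is downstream of that site. A match describes these letters only and is not a measured binding site. The call of CD68 was lost without the pair of isoforms 8 and 5 (difference 0.95) and that of SELENOP without the pair of isoforms 9 and 6 (difference 0.997). Those of CYTOR and PIPOX were lost without the pair of isoforms 7 and 4 and without that of 8 and 5 (largest limma adjusted p 0.11 and 0.108).
APOBEC1 promoter, chr12:7665909-7665966, minus strand: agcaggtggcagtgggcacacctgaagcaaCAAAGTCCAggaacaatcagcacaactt
PIPOX promoter, chr17:29043103-29043141, plus strand: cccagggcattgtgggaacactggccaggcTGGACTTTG
MISP promoter, chr19:750970-751038, plus strand: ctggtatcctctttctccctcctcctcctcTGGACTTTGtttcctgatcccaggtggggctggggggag
CD68, at the start site, chr17:7579642-7579670, plus strand: acagcctagcTGGACTTTGggtgaggcgg
CYTOR promoter, chr2:87455177-87455227, plus strand: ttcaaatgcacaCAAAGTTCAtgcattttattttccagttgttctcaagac
SELENOP promoter, chr5:42811928-42811996, minus strand: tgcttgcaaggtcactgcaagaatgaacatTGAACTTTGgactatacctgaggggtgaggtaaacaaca

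HNF4A mRNA itself (chr20:44355700-44434596, GRCh38) was high in all 6 lines. The parental cells had 31.5 ± 0.59 TPM (SD, n = 3 libraries), in the deposited unit TPM, a transcript abundance normalised within each library. The exon 1B lines had 856 ± 28.2 TPM (isoform 4), 852 ± 39.8 TPM (isoform 5) and 1071 ± 41.4 TPM (isoform 6). The P2 lines had 733 ± 35.5 TPM (isoform 7), 734 ± 31.2 TPM (isoform 8) and 948 ± 130 TPM (isoform 9, with libraries at 808, 974 and 1063 TPM). In each line the row named for its own isoform held 99.6% to 99.9% of the HNF4A signal. The tables of the lines labelled isoform 4 and isoform 5 list the names HNF4A4 and HNF4A5 in the reverse of the order used in the other tables. By name their signal matches the labels, and by place in the table it matches the other isoform. Which of these lines holds isoform 4 and which isoform 5 is therefore unsure, and both names below are those of the labels. The comparison of the classes holds both lines on the same side, while the values of the pairs 7 with 4 and 8 with 5 and of the C-terminal forms rest on the labels. The mean of the P2 lines differed from that of the exon 1B lines by -121 TPM, with all 3 pair differences between -118 and -123 TPM. An exact two-sided permutation test over the 6 line means, which ignores the pairs, gave p = 0.3 (smallest possible 0.1). An exact two-sided test that changes signs within the 3 pairs, chosen after seeing the data, gave p = 0.25, the smallest it can give. The part of this difference in the results that follow was not tested.

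**Figure D1:**
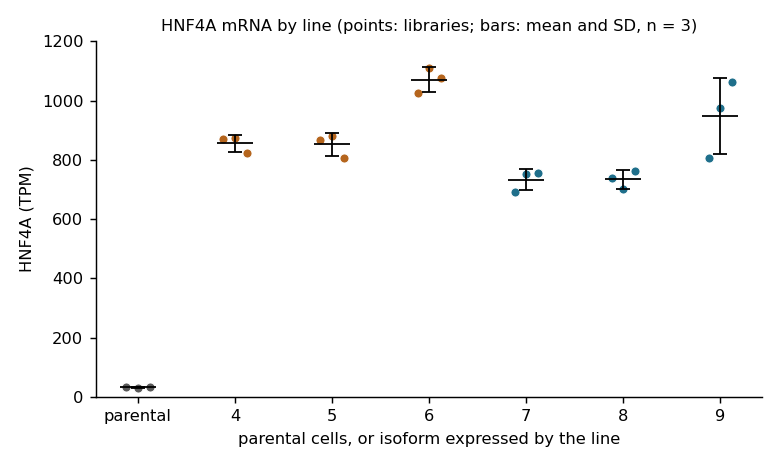
HNF4A mRNA in TPM (vertical axis) in the parental cells and the lines of isoforms 4 to 9 (horizontal axis), with points for libraries and bars for the mean and SD of 3. The parental cells sit at 31.5 TPM and the lines between 733 and 1071 TPM, each P2 line below the exon 1B line of its C-terminal form.

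The 18 libraries had 27892 to 29633 genes above 0 TPM, and in each line every library correlated with a sister library at 0.995 or more. TPM gives no read depth. Of 7 colorectal epithelial markers (EPCAM, KRT8, KRT18, KRT19, CDH1, ELF3, CLDN7) all were detected, at 2621 to 3145 TPM in sum in the exon 1B lines, 3247 to 4880 TPM in the P2 lines and 3208 to 3335 TPM in the parental cells. Markers of other cell types were low. The 7 fibroblast markers summed to 10.8 to 16.9 TPM in the exon 1B lines and 8.78 to 13.4 TPM in the P2 lines, with 4 of 7 under 0.1 TPM. The 7 leukocyte markers summed to 6.61 to 10.0 TPM and 11.2 to 20.8 TPM, with 3 of 7 under 0.1 TPM and most of the sum in CD68. The 5 endothelial markers summed to 1.71 to 3.44 TPM and 2.28 to 4.43 TPM, with 2 of 5 under 0.1 TPM.

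Among the genes higher in the P2 lines were ACSL5 and CIDEC of fatty acid handling, the transporter ABCG2, the mRNA-editing enzyme APOBEC1 and the cytokine IL32. So were 5 of 12 tested genes of the S100 family, which was looked at after the values were seen. Libraries of isoforms 1 to 3 had 7.37 to 111 TPM of ACSL5, 9.7 to 99.6 of CIDEC and 4.7 to 22.4 of ABCG2. They had 3.52 to 48.2 TPM of APOBEC1 and 14.5 to 148 of IL32, so high levels of these genes are not particular to the P2 lines. Among the lower genes were HBE1 of the globin locus, the imprinted genes H19 and IGF2, and the regulators SOX4, CD24 and ID3. The 3 libraries of a line were averaged as log2(TPM + 1), and the 6 line means were compared with limma with the C-terminal form as a block. Genes counted as called when the Benjamini-Hochberg adjusted p was under 0.05 and the log2 difference at least 1 in size. Of 15002 genes tested, 213 were called (1.42%), 95 higher in the P2 lines (0.633%) and 118 lower (0.787%). The median difference of all genes was -0.01, and 17 higher and 9 lower genes differed by 2 or more. The sign was the same in all 3 pairs for all 213. The 9 P2 libraries lay entirely above the 9 exon 1B libraries for 85 of the 95 higher genes and entirely below for 101 of the 118 lower genes, against 5.47% and 6.38% of all genes tested. The genes were called from these same pairs and libraries, so the common sign and the separation largely follow from the call and are descriptions. With no filter on low values limma called 0 of 39251 genes, although 7537 had an unadjusted p under 0.05. The filter used was a mean of 1 TPM or more over the 39 libraries. A pseudocount of 0.1 TPM gave 393 calls, 210 of them among the 213, and a filter of 5 TPM gave 125, with 123 among the 213 and 90 of the 213 not tested. In these bulk samples, a change of level in every cell and a change in the share of cells that express a gene cannot be told apart.

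Among genes of fatty acid handling, ACSL5 (chr10:112374018-112428380), which activates long-chain fatty acids to acyl-CoA, had the largest positive difference of all called genes. Its level was 64.0 ± 2.99 TPM in the isoform 7 line, 44.9 ± 2.25 in the isoform 8 line and 12.2 ± 0.901 in the isoform 9 line (SD, n = 3). The exon 1B lines spanned 0.23 to 0.627 TPM (median 0.563) and the parental cells 0.485 to 0.64 TPM. All 9 P2 libraries were thus above every exon 1B and parental library, and the isoform 9 line was the lowest of the P2 lines. The log2 difference was 4.55 ± 0.36 (SE, 3 pairs of lines; limma adjusted p = 0.00487). CIDEC (chr3:9866711-9880254), a lipid droplet protein, ranged from 5.53 to 27.4 TPM (median 14.1) in the P2 lines and from 0.0339 to 4.38 TPM (median 0.854) in the exon 1B lines. Within the exon 1B lines CIDEC fell into steps of 3.99 ± 0.628, 0.752 ± 0.235 and 0.0692 ± 0.0329 TPM for isoforms 4, 5 and 6, and each stayed below its P2 counterpart. Its difference was 2.72 ± 0.14 (SE; limma adjusted p = 0.00328).

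Of 24 genes of fatty acid activation and lipid droplets, 16 passed the filter, ACSL5 and CIDEC were the 2 called, 4 had an adjusted p under 0.05 with a positive difference and 2 with a negative one. The median was 0.03 beside -0.01 for all genes, and the adjusted p alone passed for 8.32% of all genes in the positive direction and 10.4% in the negative direction. The related synthetases ACSL1, ACSL3 and ACSL4 had differences of -0.31, 0.02 and 0.06, none of which passed. PLIN2, the common droplet coat protein, was at -0.67 (limma adjusted p = 0.177), with 9.33 TPM in the isoform 7 line and 29.9 to 35.9 TPM in the other 5 lines. Of 21 genes of fatty acid oxidation and ketogenesis, 19 were tested and none was called, with 3 positive and 4 negative at the adjusted p and a median of -0.02. The largest of these was ACAA2, a mitochondrial thiolase, at 0.66 (limma adjusted p = 0.0499).

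Several enzymes and transporters were higher as well. APOBEC1 (chr12:7649400-7665903), the cytidine deaminase that edits apolipoprotein B mRNA, was at 4.77 to 17.8 TPM (median 9.98) in the P2 lines and at 0 to 0.453 TPM (median 0.061) in the exon 1B lines. The gene is one of those with a CAAAGTCCA match, at -28 bases from its start site, and its difference was 3.16 ± 0.23 (SE; limma adjusted p = 0.00456). HPD (chr12:121839527-121863596), an enzyme of tyrosine breakdown, was at 3.06 to 25.8 TPM (median 11.9) against 0.512 to 0.899 TPM (median 0.708). HPD differed by 2.78 ± 0.43, and without the pair of isoforms 8 and 5 it was no longer called (limma adjusted p = 0.078). ABCG2 (chr4:88090264-88231322), a drug and urate efflux pump, was at 9.67 to 16.8 TPM (median 12.7) against 1.55 to 2.5 TPM (median 2.01). ABCG2 differed by 2.22 ± 0.15 (SE; limma adjusted p = 0.00411), with the parental cells at 2.05 ± 0.174 TPM, level with the exon 1B lines. DHRS3 (chr1:12567910-12617731), which reduces retinal to retinol, was at 63.5 to 101 TPM (median 75.4) against 12.7 to 18.5 TPM (median 15.4), a difference of 2.28 ± 0.09. HKDC1, a member of the hexokinase family (chr10:69220303-69267559), was at 1.87 to 6.58 TPM against 0.0394 to 0.28 TPM and differed by 2.25 ± 0.19. Among other enzymes and transporters called higher were ANPEP, the brush border aminopeptidase N (2.11), CYP1A1, a xenobiotic-metabolising cytochrome P450 (1.55), PIPOX, a peroxisomal oxidase (1.39), BAAT, which conjugates bile acids (1.29), SLC47A2, a cation exporter (1.26), and HEPH, a ferroxidase of iron export (1.09). The calls of ANPEP, PIPOX, BAAT and HEPH were lost without the pair of isoforms 7 and 4 and without that of 8 and 5, and the call of CYP1A1 without the latter (largest limma adjusted p 0.15, 0.108, 0.13, 0.0775 and 0.0768). PIPOX, BAAT, ANPEP and HEPH were lowest in the isoform 9 line, at 1.41, 0.787, 0.657 and 1.52 TPM.

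Signalling and immune genes among the higher set included IL32, VIPR1, OAS1 and AREG. IL32 (chr16:3065297-3082192), a pro-inflammatory cytokine, was at 42.7 ± 2.69, 41.6 ± 1.34 and 10.3 ± 0.167 TPM in the lines of isoforms 7, 8 and 9 (SD, n = 3). Its exon 1B libraries were at 0.437 to 2.5 TPM (median 0.835), so the classes did not overlap. IL32 differed by 3.75 ± 0.31 (SE; limma adjusted p = 0.0052). Another pattern was seen for OAS1 (chr12:112906777-112933222), an interferon-induced sensor of double-stranded RNA. OAS1 was at 10.1 to 20.3 TPM (median 14) in the P2 lines, at 0.336 to 1.55 TPM (median 1.32) in the exon 1B lines and at 4.00 ± 0.314 TPM in the parental cells, so the parental level lay between the classes. Its difference was 2.93 ± 0.18 (SE; limma adjusted p = 0.00403). VIPR1 (chr3:42489299-42537573), a receptor for vasoactive intestinal peptide, was at 19.0 to 42.1 TPM (median 24.1) against 3.34 to 4.77 TPM (median 4.16). VIPR1 differed by 2.43 ± 0.16 and the overlapping VIPR1-AS1 by 2.46 ± 0.30. Whether the counting used strand is not given in the sources used here, so reads of VIPR1 and its antisense partner may be shared, which was not tested. AREG, an EGF receptor ligand (chr4:74445134-74455009), was at 60.0 to 83.9 TPM (median 66.7) against 9.47 to 34.8 TPM (median 20.7). AREG differed by 1.83 ± 0.27, with pair differences of 1.14 (7 with 4), 1.66 (8 with 5) and 2.67 (9 with 6). Without the pair of isoforms 8 and 5 AREG was no longer called (limma adjusted p = 0.0661). IRAK2, a kinase of interleukin-1 receptor signalling, and the serine kinase PIM1 differed by 1.91 ± 0.09 and 1.29 ± 0.14.

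The interferon list did not follow OAS1. Of 33 interferon-stimulated genes, 20 were tested: OAS1 was called higher, IFITM1 (-1.16) and IFI6 (-1.11) were called lower, and 3 positive and 7 negative differences passed the adjusted p. Over all genes it passed for 8.32% in the positive direction and 10.4% in the negative direction. IFITM1, an antiviral membrane protein, was at 0.715 to 2.22 TPM against 3.51 to 5.57 TPM, and IFI6 at 7.51 to 16.6 TPM against 23.0 to 27.3 TPM, neither overlapping. The list median was -0.25 (0.00462 with a filter of 5 TPM), ISG15 had a difference of 0.03 and OAS3, of the same enzyme family as OAS1, one of 0.41. The call of IFI6 was lost without the pair of isoforms 7 and 4 (-0.93). Of 17 NF-kB targets and chemokines, 10 were tested, with IL32 called higher, TNFAIP2 called lower (-1.20 ± 0.12) and a median of -0.03.

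C11orf86 (chr11:66975277-66977004), an open reading frame with no assigned function, was at 15.8 to 54.2 TPM (median 38.2) against 0.547 to 4.89 TPM (median 1.88), and had a difference of 3.48 ± 0.11 (SE; limma adjusted p = 0.00247). S100A14 (chr1:153614255-153616986), an EF-hand calcium-binding family protein, was at 304 ± 18.9, 198 ± 11.6 and 92.2 ± 3.46 TPM in the P2 lines and at 54.9 ± 5.3, 30.2 ± 2.08 and 20.1 ± 0.818 TPM in the exon 1B lines, in the order of their C-terminal forms. The full form was the highest and the short form the lowest in both classes, and the difference of 2.42 ± 0.10 was close in the 3 pairs (2.45, 2.68 and 2.14). Within chr1:153534599-153631360, S100A6, S100A3, S100A14 and S100A13 were called higher and all 8 genes tested had a positive difference, down to 0.16 for S100A2 and 0.21 for S100A4 (-0.18 without the pair of isoforms 8 and 5). S100A10, which lies elsewhere on the chromosome, was higher by 1.38 ± 0.21. The calls of S100A3, S100A6 and S100A13 (1.47, 1.01 and 1.02) were lost without the pair of isoforms 7 and 4 and without that of 8 and 5, when S100A3 had a limma adjusted p of up to 0.0651 and S100A6 and S100A13 differences down to 0.89 and 0.94. The call of S100A6 was also lost without isoform 6 replicate 1, isoform 7 replicate 2 or isoform 9 replicate 3 (0.99 to 1.00), and that of S100A10 without the pair of isoforms 8 and 5 (limma adjusted p = 0.0781). The bounds of the S100 stretch were set by its called genes, so its counts are descriptions. Over all genes 0.633% were called higher. The stretches given with CAV1, HBE1, H19 and GSTA1 were set in the same way. Called genes with gaps of at most 200000 bases formed 16 runs of 37 genes, 10 of them in runs of mixed direction.

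CAV1 and CAV2, which form caveolae and lie side by side in chr7:116287380-116561184, were high in all cells and lowest in the exon 1B lines. CAV1 was at 229 to 362 TPM (median 305) in the P2 lines, 71.3 to 148 TPM (median 80.9) in the exon 1B lines and 211 ± 5.77 TPM in the parental cells. CAV1 differed by 1.61 ± 0.12 (SE; limma adjusted p = 0.00464) and CAV2 by 1.42 ± 0.12. CAVIN2, a caveola coat protein, was called lower at -1.03 ± 0.25, and CAVIN1 had a difference of 0.19 that did not pass. The call of CAVIN2 was lost without any 1 of 5 libraries (isoform 4 library N3, isoform 6 replicate 3, isoform 8 replicate 1, isoform 9 replicate 1 or 2), at -1.03 to -0.98 with a limma adjusted p of 0.0463 to 0.0514. It was also lost without the pair of isoforms 8 and 5 (-0.69, limma adjusted p = 0.125) or that of 9 and 6 (-1.04, limma adjusted p = 0.093). Of 22 mesenchymal and matrix genes 15 were tested, these 3 were the ones called, and the median was 0.19 (0.02 with no filter). For this and the other lists, 0.633% of all genes tested were called higher and 0.787% lower, with a median of -0.01. VIM, an intermediate filament gene of mesenchymal cells, had pair differences of 0.08, 1.11 and -2.93 and no common direction.

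**Figure D2:**
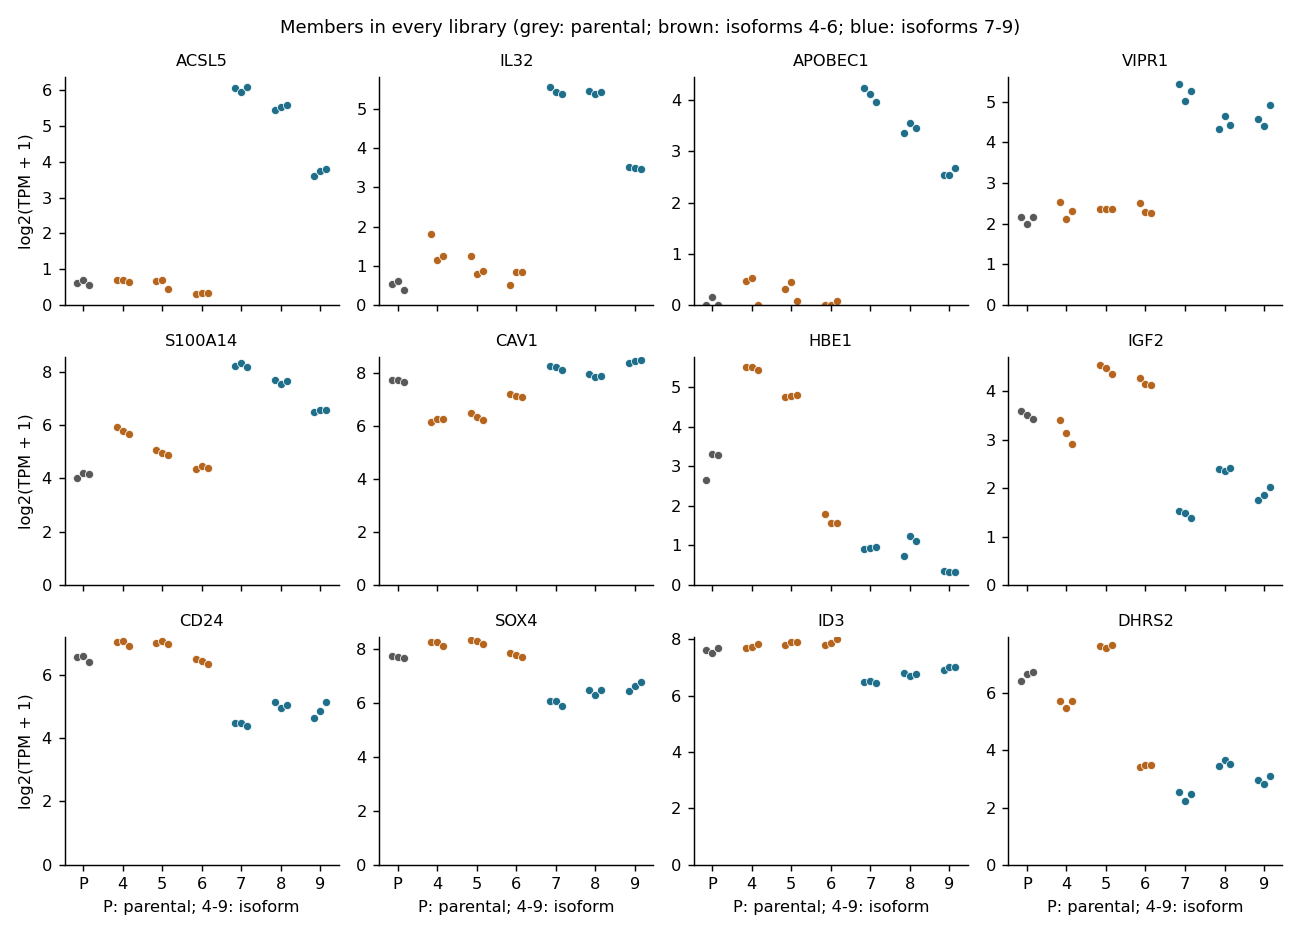
Levels as log2(TPM + 1) (vertical axes) of 12 members in every library of the parental cells (P, grey), the exon 1B lines 4 to 6 (brown) and the P2 lines 7 to 9 (blue), with 1 point per library. The classes are separate for 11 of the 12 genes, DHRS2 being the exception, and the isoform 9 line is the lowest P2 line for ACSL5, IL32, APOBEC1 and S100A14.

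Of 21 genes listed as HNF4A targets in gut or liver, 5 passed the filter, 1 was called and the list median was 0.05 (0.33 with a filter of 5 TPM). VIL1, the microvillus actin-bundling protein, was called higher at 2.43 to 4.2 TPM (median 3.92) against 0.722 to 1.42 TPM (median 0.961). VIL1 differed by 1.15 ± 0.13, which without the pair of isoforms 8 and 5 was 0.99 and under the size of a call. LGALS4, an intestinal galectin, had 0.88 and F10, a coagulation factor, -0.49, while APOA1 (0.03) and MTTP (0.05), of lipoprotein assembly, did not pass. The 9 libraries of isoforms 1 to 3 had 9.91 to 45.6 TPM of VIL1 and 1.27 to 12.8 TPM of LGALS4, against 0.526 to 2 TPM of LGALS4 in the P2 lines. Of 18 brush border genes 10 were tested, with VIL1 called, 4 positive at the adjusted p (8.32% of all genes) and a median of 0.20 (0.06 with no filter). Of 23 colonocyte differentiation genes 3 were tested, none was called and the median was 0.12 (-0.07 with a filter of 5 TPM). Among 27 nuclear receptors and transcription factors of liver or gut, 19 were tested and CREB3L3, a liver and gut factor of lipid metabolism, was the call (1.17 ± 0.29). CREB3L3 was at 3.65 and 4.08 TPM in the lines of isoforms 7 and 8 and at 0.524 TPM in that of isoform 9, within the range of the exon 1B lines (0.161 to 1.08 TPM). Its call was lost without any 1 of 7 libraries (isoform 4 library N2, isoform 5 library N3, isoform 6 replicate 3, isoform 8 replicate 1 or 3, isoform 9 replicate 2 or 3), with a limma adjusted p of 0.0501 to 0.0551. The call of CREB3L3 was also lost without the pair of isoforms 7 and 4 (1.07, limma adjusted p = 0.162). Without the pair of isoforms 8 and 5 it was lost as well (0.83, limma adjusted p = 0.173).

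Of 15 claudin and tight junction genes, 14 were tested, none was called, and 7 passed the adjusted p, all positive, with a list median of 0.23. Over all genes the adjusted p passed for 8.32% in the positive direction and 10.4% in the negative direction. The largest were CLDN2 (0.65), a pore-forming claudin, and CLDN7 (0.50), CLDN3 (0.48) and CLDN4 (0.47). Of the 7 epithelial markers, 6 were positive and 1 (ELF3) negative at the adjusted p. KRT19 was at 604 to 879 TPM (median 810) against 324 to 494 TPM (median 468), with a difference of 0.81 ± 0.04, and CDH1 (E-cadherin) differed by 0.58. KRT7, a simple-epithelium keratin, was called higher at 1.41 ± 0.21, a call lost without the pair of isoforms 8 and 5 (limma adjusted p = 0.0762). The part of the epithelial markers in the other results was not tested.

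Of 19 cholesterol synthesis genes 18 were tested, none was called and the median was 0.31. The adjusted p passed for 10 with a positive difference and none with a negative one, against 8.32% and 10.4% of all genes. MVD and MVK, enzymes of the mevalonate pathway, differed by 0.56 ± 0.06 and 0.47 ± 0.08. INSIG1, which retains the sterol-sensing machinery in the endoplasmic reticulum, differed by 0.46 ± 0.07.

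**Figure D3:**
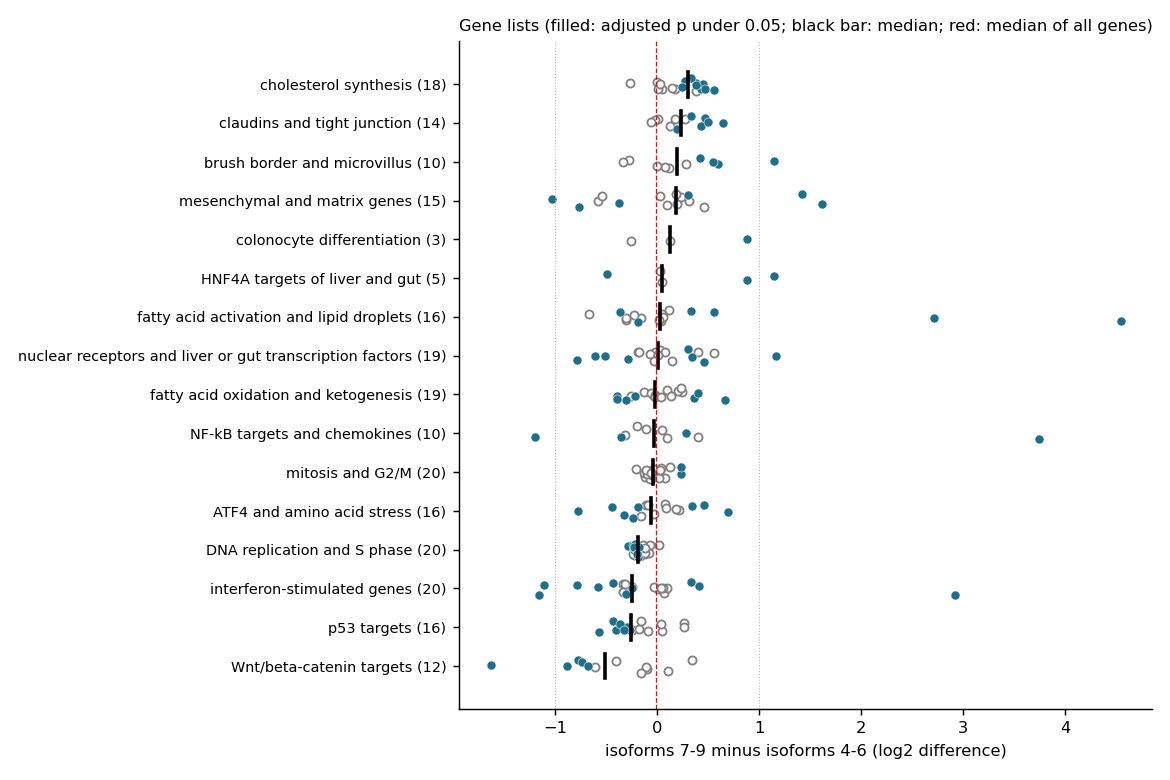
Log2 difference of the P2 lines from the exon 1B lines (horizontal axis) for each tested gene of 16 lists (vertical axis, number tested in brackets), with filled points for an adjusted p under 0.05, black bars for list medians and a dashed red line for the median of all genes. Medians run from -0.51 for Wnt/beta-catenin targets to 0.31 for cholesterol synthesis, and few points lie beyond a difference of 1.

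The largest negative difference was at the embryonic globin gene HBE1 and the olfactory receptor genes OR51B5 and OR51B4 within chr11:5268345-5505652. HBE1 was at 43.8 ± 1.24, 26.7 ± 0.535 and 2.14 ± 0.283 TPM in the lines of isoforms 4, 5 and 6 (SD, n = 3) and at 0.91 ± 0.0321, 1.07 ± 0.361 and 0.271 ± 0.0153 TPM in those of isoforms 7, 8 and 9. The parental cells had 5.31 to 8.92 TPM. The lines of isoforms 4 and 5 were thus above the parental cells and the other 4 lines below. HBE1 differed by -3.20 ± 0.59 (SE; limma adjusted p = 0.0226), OR51B5 by -2.97 and OR51B4 by -2.34. The annotation of HBE1 spans both receptor genes, so reads may be shared between them, which was not tested. The calls of HBE1, OR51B5 and OR51B4 were lost without the pair of isoforms 7 and 4 and without that of 8 and 5 (largest limma adjusted p 0.113, 0.122 and 0.146).

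In the imprinted region of chromosome 11, SYT8, TNNI2, LSP1 and H19 were called lower within chr11:1828307-2001470, as was IGF2, whose position is not matched to 1 annotated gene here. H19, an imprinted noncoding RNA, was at 1.21 to 3.73 TPM (median 3.15) in the P2 lines and 6.65 to 23.4 TPM (median 17.9) in the exon 1B lines. IGF2, the fetal growth factor, was at 1.61 to 4.33 TPM (median 2.6) against 6.53 to 22.4 TPM (median 16.7). The classes did not overlap for either gene, and the parental cells (11.1 ± 0.484 and 10.3 ± 0.61 TPM) lay within the exon 1B range. H19 differed by -2.10 ± 0.10 (SE; limma adjusted p = 0.003), IGF2 by -2.02 ± 0.13 (limma adjusted p = 0.00403), LSP1 by -1.88, TNNI2 by -1.69 and SYT8 by -1.33. In every one of the 5 genes the isoform 4 line was below those of isoforms 5 and 6. The other tested gene inside the span, MRPL23, a mitochondrial ribosomal protein gene, had a difference of 0.06, and did not pass. The call of SYT8 was lost without the pair of isoforms 8 and 5 (limma adjusted p = 0.0536).

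Several regulators of growth and cell identity were lower. SOX4 (chr6:21592768-21598619), a transcription factor of progenitor cells, was at 58.0 to 107 TPM (median 85) in the P2 lines and 205 to 320 TPM (median 286) in the exon 1B lines. CD24 (chr6:106969831-106975627), a surface glycoprotein of progenitor and tumour cells, was at 19.7 to 34.3 TPM (median 28.0) against 79.8 to 133 TPM (median 124). Both were separate between the classes, with differences of -1.73 ± 0.19 (SOX4, limma adjusted p = 0.00748) and -2.03 ± 0.18 (CD24, limma adjusted p = 0.00561), and in both the pair of isoforms 9 and 6 was the smallest. ID3 (chr1:23557918-23559794), an inhibitor of basic helix-loop-helix factors, was at 87.4 to 128 TPM (median 107) against 205 to 257 TPM (median 225). ID3 differed by -1.09 ± 0.07, ID2 by -1.09 ± 0.14 and SMAD6, an inhibitory SMAD of BMP signalling, by -1.37 ± 0.11. Signalling genes called lower included FGF19, an FGF hormone of bile acid control (-1.70 ± 0.23), BDNF, a neurotrophin (-1.14), ITGB8, an integrin chain that activates TGF-beta (-1.80), and DUSP6, the ERK phosphatase (-1.11). FGF19 was at 2.38 to 7.7 TPM (median 3.77) against 11.0 to 20.5 TPM (median 16.6), with the parental cells at 9.37 ± 0.0946 TPM. The call of ITGB8 was lost without the pair of isoforms 8 and 5 (limma adjusted p = 0.127), and those of BDNF and ID2 without the pair of isoforms 7 and 4 (-0.90 and -0.89). That of ID2 was also lost without the pair of isoforms 8 and 5 (limma adjusted p = 0.0511). RANBP3L, a Ran-binding protein (-2.11), SNCG, gamma-synuclein (-1.75), and ANXA1, annexin A1 (-1.34), were also called lower.

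DHRS2 (chr14:23630115-23645639), a short-chain dehydrogenase, had pair differences of unequal size. It was at 49.0, 200 and 9.98 TPM in the lines of isoforms 4, 5 and 6, at 4.35, 10.7 and 6.85 TPM in those of isoforms 7, 8 and 9, and at 96.4 ± 11.4 TPM in the parental cells. The pair differences were -3.23, -4.10 and -0.49, the isoform 6 and isoform 8 libraries overlapped, and the mean of -2.60 ± 0.65 (limma adjusted p = 0.0475) was not called without any 1 of 9 libraries (isoform 4 library N2, isoform 5 library N1 or N3, isoform 6 replicate 2 or 3, isoform 7 replicate 3, isoform 8 replicate 1 or 3, isoform 9 replicate 2). The limma adjusted p was then 0.0502 to 0.0576. DHRS2 was also not called without the pair of isoforms 7 and 4 (-2.29, limma adjusted p = 0.163). The same held without the pair of isoforms 8 and 5 (-1.86, limma adjusted p = 0.179). In all, its call was lost in 16 of 32 alternatives.

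Of 18 targets of Wnt/beta-catenin signalling 12 were tested, NOTUM was called and the median was -0.51. At the adjusted p 5 had a negative difference and none a positive one, against 10.4% and 8.32% of all genes. NOTUM, a secreted Wnt deacylase, was at 3.93 to 6.82 TPM (median 4.74) against 10.9 to 28.1 TPM (median 18.5) and differed by -1.63 ± 0.12. The others that passed were EPHB3 (-0.89), DKK1 (-0.77), EPHB2 (-0.74) and SP5 (-0.67), and AXIN2, a feedback target, had -0.61 (limma adjusted p = 0.0524). The list median was -0.10 without the filter, -0.13 with a filter of 5 TPM and -0.76 with a pseudocount of 0.1 TPM.

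For the lists that follow, the adjusted p passed for 8.32% of all genes in the positive direction and 10.4% in the negative direction. Of 20 genes of DNA replication and S phase, all were tested, none was called and 10 had a negative difference at the adjusted p. The largest was CCNE2, a cyclin of S-phase entry, at -0.29, and the list median was -0.19. Of 20 mitosis genes 2 passed, both positive (AURKA 0.24 and MKI67 0.23), and the median was -0.04. Of 16 p53 targets none was called, 8 had a negative difference at the adjusted p and the median was -0.25. The p53 targets CDKN1A (0.27) and MDM2 (0.03) did not pass. Of 17 genes of ATF4 and amino acid stress 16 were tested and none was called, with 3 positive and 5 negative at the adjusted p and a median of -0.06, from PHGDH of serine synthesis (-0.78) to DDIT4 (0.70).

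The 3 pairs of lines share no libraries, and each was also compared alone in a limma fit of all 39 libraries in 13 groups, which tests lines and not classes. Isoform 7 against 4 gave 384 called genes (2.56%), 8 against 5 gave 275 (1.83%) and 9 against 6 gave 186 (1.24%), or 637, 475 and 355 with a pseudocount of 0.1 TPM. With the lines labelled 4 and 5 exchanged, the first pair gave 504 and the second 241. Of the 95 genes higher over the pairs, 87, 77 and 50 were called higher in the pairs 7 with 4, 8 with 5 and 9 with 6, and of the 118 lower ones 105, 82 and 71 were called lower. In the higher direction 1.11%, 0.807% and 0.473% of all genes were called, and in the lower direction 1.45%, 1.03% and 0.767%. These counts describe the calls only, since the pairs make up the comparison that chose the genes. Over the higher genes the median difference was 1.61, 1.35 and 1.15, and over the lower genes -1.46, -1.18 and -1.06. The pair of isoforms 9 and 6 had the smallest difference of the 3 for 66 of 95 higher and 62 of 118 lower genes. Across the 15002 genes, which are not independent replicates, the differences of 7 with 4 had a correlation of 0.705 with those of 8 with 5 and 0.601 with those of 9 with 6, and the latter 2 pairs one of 0.569.

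**Figure D4:**
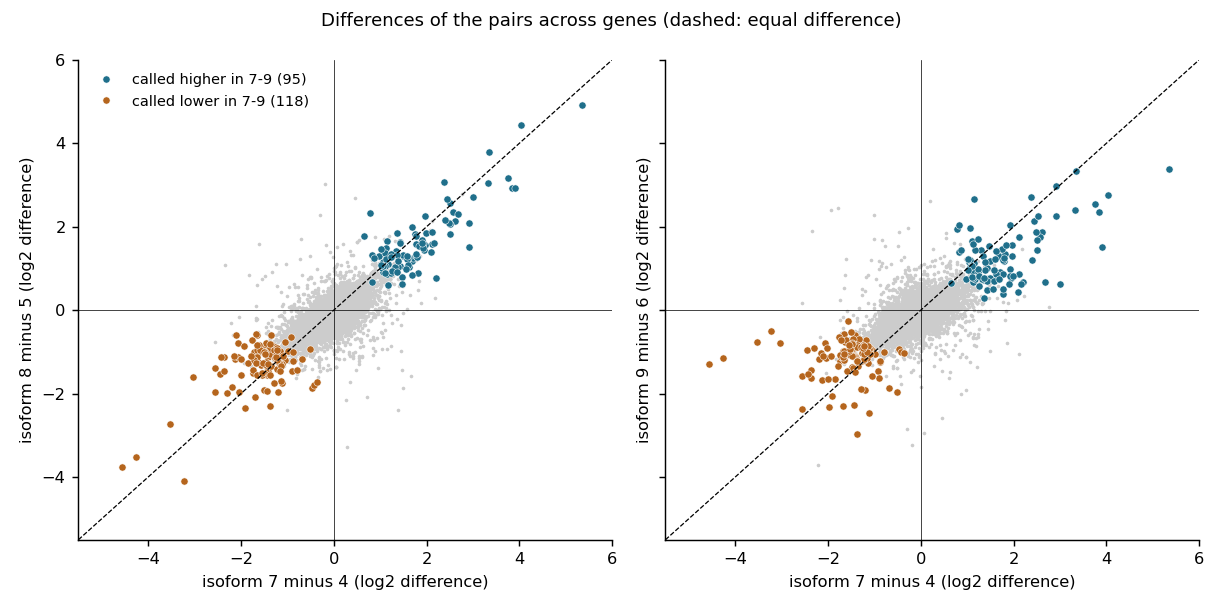
Log2 difference of isoform 8 from 5 (left, vertical axis) and of isoform 9 from 6 (right, vertical axis) against that of isoform 7 from 4 (horizontal axes), with 1 point per tested gene, blue for the 95 called higher and brown for the 118 called lower. Called genes keep their sign in all pairs and more of them lie nearer to 0 in the pair of isoforms 9 and 6.

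Whether the difference between the classes was unequal between the pairs of lines was tested as an interaction in the same fit. Each C-terminal form is 1 line per class, so an effect of the form and a difference between single lines cannot be told apart. The p-values measure the spread between libraries of a line. The difference of 9 from 6 departed from that of 7 from 4 in 117 genes (0.78%), 41 more positive (0.273%) and 76 more negative (0.507%). The difference of 8 from 5 departed from it in 60 genes (0.4%), 36 more positive (0.24%) and 24 more negative (0.16%). With the lines labelled 4 and 5 exchanged these were 96 and 184 genes, so the count for the insertion depends on which line is which. The called genes were chosen from the same libraries, so their counts here are descriptions. Of the 95 genes higher in the P2 lines, 21 had a smaller difference with the short C-terminus and 1 a larger one. Of the 118 lower genes, 13 had a less negative and 3 a more negative difference with the short C-terminus. With the insertion these counts were 1 smaller and 1 larger of 95, and 10 less negative and 2 more negative of 118. ACSL5 was among the 21, with an interaction of -1.95 ± 0.16 (SE, limma adjusted p = 1.81e-10) for the short form, and HBE1 among the 13, with 3.25.

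The parental cells show on which side of the host level each class lay. All 6 comparisons use the same 3 parental libraries, so they are given side by side only. The 95 and 118 genes were chosen from the libraries of these same lines, so their counts and medians are partly set by that choice. Isoforms 4, 5 and 6 had 80, 43 and 36 genes called against the parental cells (0.533%, 0.287% and 0.24% of genes tested), and isoforms 7, 8 and 9 had 311, 211 and 123 (2.07%, 1.41% and 0.82%). Of the 95 genes higher in the P2 lines, 79, 73 and 44 were called above the parental level in the lines of isoforms 7, 8 and 9, where 1.11%, 0.933% and 0.38% of all genes were. In the lines of isoforms 4, 5 and 6 they were 6, 2 and 0, where 0.22%, 0.147% and 0.0867% of all genes were. In those exon 1B lines 7, 9 and 5 of the 95 were called below the parental level (0.313%, 0.14% and 0.153% of all genes). Of the 118 lower genes, 82, 39 and 42 were called below the parental level in the lines of isoforms 7, 8 and 9 (0.96%, 0.473% and 0.44% of all genes), and 2, 0 and 3 in those of isoforms 4, 5 and 6 (0.313%, 0.14% and 0.153%). In these exon 1B lines 11, 6 and 1 of the 118 were called above it. The median of the higher genes was 1.31 above the parental level in the P2 lines and 0.03 above it in the exon 1B lines. For the lower genes, the P2 lines had a median of -0.96 and the exon 1B lines one of 0.33. The parental level lay between the classes for 40 of the 95 higher and 103 of the 118 lower genes.

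CAV1 and OAS1 were examples in which the exon 1B lines lay below the parental cells, and FGF19 one in which the exon 1B lines lay above them. For HBE1 and ITGB8 the lines of isoforms 4 and 5 lay above the parental cells and the line of isoform 6 below. ITGB8 was at 11.6, 6.61 and 3.11 TPM in the lines of isoforms 4, 5 and 6 and at 0.535, 1.53 and 1.4 TPM in those of isoforms 7, 8 and 9, with the parental cells at 4.38 ± 0.0782 TPM.

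**Figure D5:**
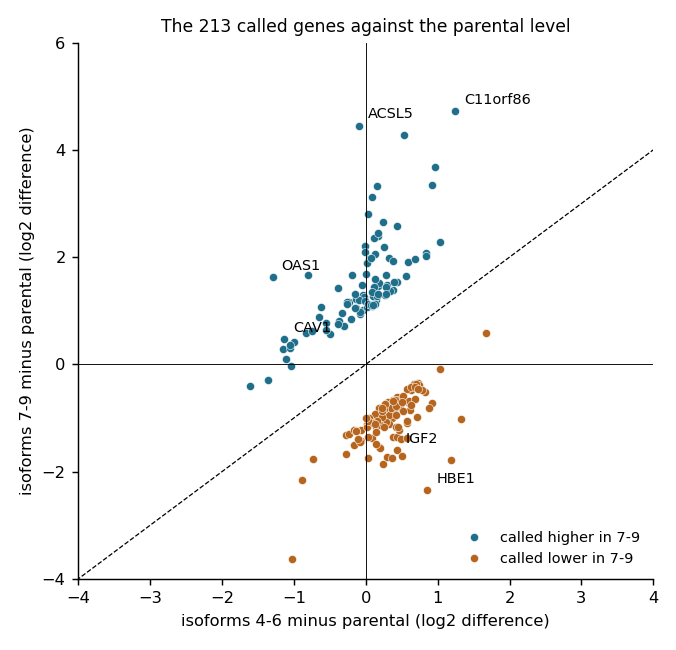
Mean log2 difference from the parental cells in the P2 lines (vertical axis) and in the exon 1B lines (horizontal axis) for the 213 called genes, blue for higher and brown for lower, with a dashed line of equal difference. Higher genes spread along the vertical axis near a horizontal value of 0 (median 0.03), while lower genes lie mostly to the right of it (median 0.33).

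A regional pattern on chromosome 4, found after the values were seen, touches 8 of the 213 calls. In 232 other stretches of 10 Mb with at least 20 tested genes, the median difference over the 3 pairs was between -0.16 and 0.09. In chr4:1-20000000, 89 of 97 tested genes had a positive difference, with a median of 0.34 (0.41, 0.23 and 0.36 in the 3 pairs). Here the exon 1B lines had medians of -0.33, -0.26 and -0.29 against the parental cells and the P2 lines 0.09, -0.03 and 0.09. In chr4:150000001-189963204, 75 of 77 tested genes had a negative difference, with a median of -0.57 (-0.77, -0.36 and -0.54). The exon 1B lines there had medians of 0.37, 0.40 and 0.35 against the parental cells and the P2 lines -0.43, 0.04 and -0.20. The stretch between them, with 293 tested genes, had a median of -0.02. CPEB2 (1.06) was called higher in the first stretch, and CTSO, CPE, CBR4, SAP30, CEP44, GPM6A and TRIML2 (-1.07 to -1.24) were called lower in the last. ETFDH, an electron transfer enzyme of fatty acid oxidation at -0.39, and ACSL1 also lie in the last stretch. ABCG2, AREG and ANXA3 lie between the stretches. DNA was not measured, and the cause of the pattern was not tested. Outside the 2 end stretches, 205 genes were called. Single lines also shifted on other chromosomes. Over chr11:80000001-130000000 the isoform 5 line had medians of 0.19 to 0.23 against the parental cells, and the pair 8 with 5 had -0.23 to -0.10. Over chr14:90000001-100000000 the lines of isoforms 6 and 8 each had a median of 0.11, and the pair 9 with 6 had -0.21. The cause of these shifts was not tested.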

How the data were processed

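RNA-seq was measured in 39 libraries, 3 for each of 13 groups, and 18 libraries of isoforms 4 to 9 entered the comparison. The authors deposited 13 tables with TPM for 45446 rows. Per the submitters' processing notes the tools were Trimmomatic 0.36, FastQC 0.11.5, kallisto 0.44.0 and DESeq2 1.22.2 with the build GRCh38.p12. Which tool made which value is not given. TPM columns summed to 999974 to 999986 per library. The authors' mean normalised counts, a signal per gene made by dividing counts by size factors before they were deposited, were used only as table sums, 50609338 to 56136330 for these 6 lines. TPM gives no counting error.

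Tables were joined by row order, since 29 names differ in the tables of isoforms 4 and 5, 27 of them written like dates. The 12 HNF4A rows were summed for HNF4A and left out of the tests. Tests covered the 15002 of 45434 rows whose mean over 39 libraries was 1 TPM or more, as log2(TPM + 1), which understates changes of low genes. The software was limma 3.58.1 (eBayes with trend) under R 4.3.3. The line fit had 2 residual degrees of freedom (5.55 with the shared variance) and the library fit 26. Of the tested rows 77 repeat another row's values. Scripts were tested on simulated data. Figures were drawn with matplotlib 3.10.9 in Python 3.11.15.

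Gene positions are from GENCODE on GRCh38, matched by name. The rule for named genes took HNF4A, the 15 largest differences in each direction, the 5 largest called interactions, and for each list its called genes (up to 6) or the 3 largest. Other genes were named after their values were seen. Some genes that met the rule are not reported here. The members and gene lists were chosen with earlier results of these data known. Alternatives covered pseudocount, filter, scaling, block, model, units and leaving out pairs or libraries.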

Additional observations from a re-analysis of the deposited data

Results flagged for a closer look

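The difference of the P2 line from the exon 1B line was unequal between pairs of lines in some genes (interaction tests, limma, 39 libraries in 13 groups). Each C-terminal form is 1 line per class, so an effect of the form and a difference between single lines cannot be told apart. The pair with the short form differed from the pair with the full form in 117 genes, and the pair with the insertion in 60. At the embryonic globin locus, HBE1 had an interaction of 3.25 and the overlapping OR51B5 one of 3.13 for the short form. Their pair differences were -4.55 and -4.26 for isoforms 7 with 4, and -1.30 and -1.13 for isoforms 9 with 6. Both genes were thus lower in the P2 line of either pair, by less between isoforms 9 and 6. Levels of HBE1 were low in that pair, where log2(TPM + 1) understates changes. The intercellular adhesion gene ICAM1 had an interaction of 3.19 for the insertion, with 15.6 ± 1.11, 0.651 ± 0.164 and 1.90 ± 0.176 TPM for isoforms 4, 5 and 6, 4.45 ± 0.633, 3.91 ± 0.0788 and 5.82 ± 0.0675 TPM for isoforms 7, 8 and 9, and 6.12 ± 0.486 TPM for the parental group (SD, n = 3). With the lines labelled 4 and 5 exchanged, whose identity is unsure, the interaction of ICAM1 was -3.47, so its direction rests on the labels. RPGRIP1, a ciliary gene, had an interaction of 3.20 for the insertion. Its level was 13.3 ± 0.436 TPM in the isoform 6 line and 10.6 ± 0.642 TPM in the isoform 8 line, 0.437 to 0.646 TPM in the other 4 lines and 3.37 ± 0.258 TPM in the parental cells. HBE1, OR51B5 and RPGRIP1 stayed past the threshold in the same direction in every alternative run for them, that exchange included.

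The other large interactions belong to short RNA genes, whose levels are uncertain in poly(A) libraries. For the short form these were RNU6-333P (4.25), SNORA47 (4.24) and RNA5SP298 (3.29), and for the insertion RNU6-589P (-3.78), RNU6-216P (-3.35) and TRS-GCT5-1 (-3.23). SNORA47 fell under the threshold in 1 of 18 alternatives, RNU6-333P in 2 of 18, RNA5SP298 in 3 of 19, RNU6-589P in 8 of 19 and RNU6-216P in 11 of 18. TRS-GCT5-1 fell under it in 8 of 18 and had 0.23 (limma adjusted p = 0.892) with the lines labelled 4 and 5 exchanged.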

How the results depend on the processing

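None of the 83 called genes looked at singly changed sign in the alternatives run. Of 70 genes not called, 17 did in at least 1, VIM (-1.42 to 0.60) and ICAM1 (-0.19 to 1.41) among them. Every called gene had the same sign in all pairs, so leaving out a pair could not change it. Alternatives of block, model, units or variance trend changed the test and not the mean difference. The contrast between called and other genes thus largely follows from the call and is a description. Of 20 list medians 5 changed sign (colonocyte, interferon, leukocyte, NF-kB at -0.034 to 0.047 and fatty acid oxidation at -0.024 to 0.035). With a pseudocount of 0.1 TPM, 393 genes were called (132 higher, 261 lower; 33.6% higher against 44.6%), the Wnt median was -0.757, the pairs gave 637, 475 and 355, the interactions 209 and 128, and isoforms 4 to 9 against the parental cells 161, 73, 61, 566, 365 and 253. With no filter, the cause of whose effect was not tested, 0 genes were called (0 higher, 0 lower), and medians were 0.0603 (brush border), -0.00727 (colonocyte), 0.190 (claudins), -0.101 (Wnt), -0.0480 (fibroblast), -0.0147 (leukocyte) and 0.00395 (endothelium). With a filter of 5 TPM, which tests fewer genes, 125 were called (56 lower; 55.2% higher), the pairs gave 223, 153 and 107, the interactions 61 and 27, isoforms 4 to 9 against the parental cells 40, 21, 17, 179, 126 and 74, and medians were 0.328 (HNF4A targets), -0.0657 (colonocyte), 0.190 (claudins), 0.00462 (interferon), -0.134 (Wnt) and 1.09 (leukocyte). Filtering on the 18 libraries gave 214 calls and a colonocyte median of -0.0657. Median-of-ratios scaling gave 209, with medians of 0.258 (claudins) and -0.220 (interferon), and moved the median of all genes to 0.02. With no minimum difference, 2814 genes passed (1248 higher, 1566 lower), the pairs gave 6205, 6281 and 3984, the interactions 1656 and 1081, and the lines against the parental cells 2451, 2218, 1510, 5941, 5153 and 3404. Without the block of C-terminal form 204 were called, in a 12-line model 195, with libraries as units 223 and without the variance trend 194.

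With the lines labelled 4 and 5 exchanged, an alternative added after seeing the data, the interaction for the insertion gave 184 genes, ICAM1 reversed to -3.47 and TRS-GCT5-1 to 0.23. With the pairs crossed (7 with 5, 8 with 4), also added, 202 genes were called, 199 of them shared. Leaving out pairs or libraries gave 165 to 293 calls (64 to 130 higher, 93 to 163 lower): 165 without isoforms 7 and 4, 168 without 8 and 5 and 293 without 9 and 6. The pairs gave 384 to 402, 263 to 297 and 184 to 208, the interactions 113 to 138 and 54 to 69, and isoforms 4 to 9 against the parental cells 81 to 83, 39 to 42, 25 to 34, 312 to 323, 192 to 238 and 126 to 138. The HNF4A difference was -140.6 to -98.0 TPM.

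The replicate block could be fitted for isoforms 9 and 6 only: 198 genes were called with it and 190 without. Deviations of libraries with the same number had correlations of 0.158, 0.087 and 0.03 there and -0.144 to 0.184 over the 6 pairs among lines 6 to 9, with 4 of 18 over 0.1, so the numbers were not taken as pairs in these lines. Columns of isoforms 4 and 5 carry no number that the labels give.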

Other observations

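Gene families outside the lists were looked at after the values were seen, so their counts are descriptions. Of 15 semaphorin genes tested, 4 were positive and 6 negative at the adjusted p (8.32% and 10.4% of all genes) and the median was -0.20. Of those called, SEMA3C (1.36 ± 0.07), SEMA7A (1.31) and SEMA3B (1.24 ± 0.07) were higher in the P2 lines and SEMA6B (-1.38 ± 0.06) was lower, and the semaphorin co-receptor NRP1 was higher (1.44 ± 0.13). The call of SEMA7A was lost without the pair of isoforms 7 and 4 and without that of 8 and 5 (largest limma adjusted p 0.153). SEMA3C was close in the 3 pairs (1.35, 1.43 and 1.30), at 12.5 to 19.1 TPM in the P2 lines and 5.36 to 6.28 TPM in the exon 1B lines. The alpha class glutathione transferases GSTA1 and GSTA2, of detoxification, lie side by side in chr6:52750089-52803910 and were both lower (-1.48 ± 0.12 and -1.33 ± 0.10). Among 8 genes of the aryl hydrocarbon receptor pathway CYP1A1 was higher and AHRR, the repressor of that receptor, lower (-1.45 ± 0.17), at 3.64 to 8 TPM against 14.2 to 17.7 TPM. Among 9 annexins ANXA3 was higher (1.18, a call lost without the pair of isoforms 7 and 4 or 8 and 5, largest limma adjusted p 0.095) and ANXA1 lower. ZFP36, which promotes decay of cytokine mRNAs, was higher by 1.14 ± 0.06, and its companion immediate early gene JUN by 1.01 ± 0.11, a call lost without any 1 of 5 libraries (isoform 4 library N3, isoform 5 library N3, or replicate 3 of isoform 6, 8 or 9), at 0.98 to 1.00. The call of JUN was also lost without the pair of isoforms 8 and 5 (0.86).

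The pseudogene AQP7P3 (3.04) and the transfer RNA name TRNV (-2.21) also passed, and both are uncertain because reads of near copies may be shared. The call of TRNV was lost without the pair of isoforms 8 and 5 (limma adjusted p = 0.0595). The row LOC389602 (2.23) and MYO15B (2.15) were other large positive differences.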
